A study of Homo sapiens with 4 samples.

Results

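MiR-199, miR-214, miR-143 and miR-145 are miRNAs best known from fibroblasts, smooth muscle and other mesenchymal cells. They were followed here in 4 small RNA libraries of human hepatoma cells. The rows were chosen by name (miR-199a-3p, miR-199b-3p, miR-199a-5p, miR-199b-5p, miR-214, miR-143 and miR-145 with the human prefix hsa), which gave 7 of the 1733 miRNA rows of each library. The rows of miR-199a-3p and miR-199b-3p held the same counts in every library, since both miRNAs have the same sequence, and were counted once, so that 6 distinct miRNAs were left. The hepatoma lines Hep3B and Huh7 stand for hepatocellular carcinoma (HCC) cells. The lines Hep3B-C and Huh7-C are stem-like cells cultured from them, called hepatic cancer stem cells (HCSCs). The counts of a pair are given with its HCC library first. No drug treatment, transgene or deletion is named for any of the 4 conditions, and whether a stem-like line is 1 clone is not given in the sources used here. Each condition had 1 library, so that no difference within a pair has a replicate check in its own line, and the tests within a pair compare libraries and cover counting noise only.

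A miRNA is cut from a hairpin, which can give a mature strand from its 5′ side (5p) and from its 3′ side (3p), and bases 2 to 8 of the mature strand (the seed) pair with target mRNAs. MiR-199a and miR-214 are made from a shared transcript that runs antisense to the dynamin gene DNM3, while miR-143 and miR-145 are made from a shared long noncoding transcript (CARMN) of smooth muscle. In liver, miR-199a-3p is abundant in normal tissue and is known for its low level in hepatocellular carcinoma. MiR-143 and miR-145 are often used as markers of stroma in tissue samples, and miR-145 is known to repress pluripotency factors such as OCT4 and SOX2.

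The mature sequences show which reads can be told apart, and the seed is in capitals (RefSeq, GRCh38.p14, 5′ to 3′). Of the 7 rows, 6 were matched to a mature sequence by name, with miR-214 and miR-143 taken as the 3p strand and miR-145 as the 5p strand.
hsa-miR-199a-3p (also the sequence of miR-199b-3p): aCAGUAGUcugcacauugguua
hsa-miR-199a-5p: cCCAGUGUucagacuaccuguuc
hsa-miR-214: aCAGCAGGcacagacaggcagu
hsa-miR-143: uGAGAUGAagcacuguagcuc
hsa-miR-145: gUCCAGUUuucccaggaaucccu

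No seed was shared among these distinct sequences. Outside them, the seed CAGUAGU was shared with miR-3129-5p (1 count in Hep3B, 0 in its HCSCs and 6 in each Huh7 library), and CAGCAGG was shared with miR-3619-5p (0 and 1 counts in each pair) and with miR-761, which had 0 counts in all 4 libraries. The seed of miR-143 was shared with miR-4770, at 0 counts in all 4 libraries. The seeds of miR-199a-5p and miR-145 were shared with no other row that was matched to a RefSeq mature sequence.

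The hairpin genes of miR-199 all lie in introns of dynamin genes on the opposite strand (GENCODE release 29, GRCh38). MIR199A1 is at chr19:10817426-10817496 within DNM2, MIR199A2 is at chr1:172144535-172144644 within DNM3, and MIR199B is at chr9:128244721-128244830 within DNM1. MIR199A2 and MIR214 (chr1:172138798-172138907) also lie in exons of DNM3OS, on its strand and 5627 bases apart. MIR143 (chr5:149428918-149429023) lies in an exon and MIR145 (chr5:149430646-149430733) in an intron of CARMN, on its strand and 1622 bases apart. The hairpins of MIR199A2 and MIR199B are shown because they tell which rows can be separated, with capitals for the 3p strand and for the 5p stretch that is most like miR-199a-5p (minus strand of GRCh38.p14).
MIR199A2: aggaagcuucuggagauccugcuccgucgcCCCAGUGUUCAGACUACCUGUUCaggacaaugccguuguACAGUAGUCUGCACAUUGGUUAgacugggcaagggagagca
MIR199B: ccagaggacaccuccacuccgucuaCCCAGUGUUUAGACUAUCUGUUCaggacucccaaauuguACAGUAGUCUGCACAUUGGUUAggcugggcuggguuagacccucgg

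The 3p strand of 22 bases was the same in MIR199A1, MIR199A2 and MIR199B, so that a 3p read does not tell which gene it came from. The 5p stretch matched miR-199a-5p at 23 of 23 bases in MIR199A1 and MIR199A2, and at 21 of 23 bases in MIR199B. Counted from 1 at the 5′ end of miR-199a-5p, the substitutions in MIR199B were C10U and C17U, both outside the seed, so that the stretch in MIR199B holds the seed of miR-199a-5p as well. The 5p rows thus differ in sequence between miR-199a and miR-199b, while the 3p rows do not.

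The miRNA counts summed to between 1739278 (Hep3B) and 5741567 (Huh7) per library. Levels are given as TPM, which is counts per 1000000 total reads of a library, and 1 read was worth between 0.0596 and 0.0941 TPM. Counts of 3 were taken as the smallest level that the depth can show (0.179 to 0.282 TPM), so that a count of 0 allows a level of up to this. MiRNA reads were 10.4% and 35.2% of the total reads in the Hep3B pair, against 54.1% and 37.8% in the Huh7 pair, so that a difference in TPM depends on the library size that is used. Of the hepatocyte miRNAs, miR-192 (179088 to 706923 counts) and miR-122 (397 in Hep3B, 144814 to 489443 in the others) were found in all 4 libraries. Because RNA was taken from whole cultures, fewer cells that express a miRNA and less of it per cell cannot be told apart.

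MiR-199a-3p was found in all 4 libraries, with 165 and 64 counts in the Hep3B pair (9.83 and 4.14 TPM) and 72 and 13 counts in the Huh7 pair (6.78 and 1.21 TPM). The level was lower in the HCSC library of each pair. Within its library it ranked 152 of 674 detected miRNAs (Hep3B), 267 of 773 (Hep3B-C), 218 of 712 (Huh7) and 319 of 664 (Huh7-C). In TPM the order was Hep3B, Huh7, Hep3B-C and Huh7-C, and the 95% counting interval of the difference excluded 0 between all neighbours. With miRNA counts as the library size, Huh7 and Hep3B-C did not differ beyond counting noise (log2 difference 0.09, interval -0.42 to 0.60).

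The 5p strands were rarer, and each line had counts of a different one. MiR-199a-5p had 1 and 0 counts in the Hep3B pair but 17 and 4 in the Huh7 pair. MiR-199b-5p had 13 and 27 counts in the Hep3B pair, against 0 in both libraries of the Huh7 pair. MiR-199a-5p thus made up 7.14% of the 14 5p reads of Hep3B (95% Clopper-Pearson interval 0.181% to 33.9%) and 0% of the 27 of Hep3B-C (0% to 12.8%). It made up 100% of the 17 5p reads of Huh7 (80.5% to 100%) and of the 4 of Huh7-C (39.8% to 100%). This split between lines was noticed in the counts and is given without a test. Against a level of 3 counts in the Huh7 library, miR-199b-5p was 2.74-fold higher in Hep3B. It was 6.25-fold higher in the HCSCs of Hep3B against such a level in those of Huh7. The lower limits of the 95% counting intervals of these log2 differences between lines were 0.95 and 2.24.

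**Figure D1:**
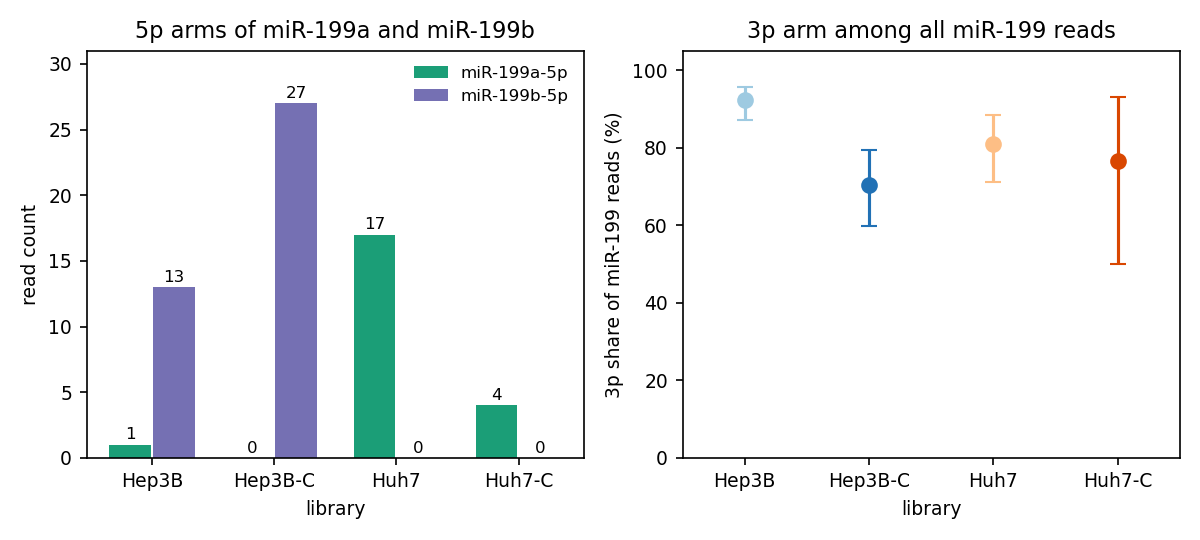
Left, read counts of miR-199a-5p (green) and miR-199b-5p (purple) in the 4 libraries, with the count above each bar. Right, percentage of miR-199a-3p reads among all miR-199 reads of a library, with 95% Clopper-Pearson intervals. The 5p reads of the Hep3B and Hep3B-C libraries were of miR-199b-5p except for 1 read, those of Huh7 and Huh7-C were all of miR-199a-5p, and the 3p share was highest in Hep3B.

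MiR-214, which shares its transcript with miR-199a, was almost absent. It had 0 counts in Hep3B and its HCSCs and 1 and 2 in the Huh7 pair, and its other strand miR-214* had 0 in the former and 4 and 1 in the latter. All of these counts but 1 were at or under 3 counts. The few reads of the miR-214 hairpin were in the Huh7 libraries, which also held all but 1 of the 22 miR-199a-5p reads.

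MiR-143 was the most abundant of the 6 in the Hep3B libraries. It had 427 and 1706 counts in the Hep3B pair (25.4 and 110.5 TPM) and 33 and 13 counts in the Huh7 pair (3.11 and 1.21 TPM). It ranked 104 of 674 detected miRNAs (Hep3B), 81 of 773 (Hep3B-C), 276 of 712 (Huh7) and 319 of 664 (Huh7-C). The Hep3B libraries were high and the Huh7 libraries low. MiR-143 was 8.19-fold higher in Hep3B than in Huh7 (log2 3.03, 95% counting interval 2.52 to 3.59) and 91.1-fold higher in the HCSCs of Hep3B than in those of Huh7 (log2 6.51, interval 5.73 to 7.42). With miRNA counts as the library size these log2 differences were 5.42 and 6.61, and the last neighbours in the order, Huh7 and Huh7-C, did not differ beyond counting noise (0.84, interval -0.13 to 1.89).

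MiR-145, from the same primary transcript, had 5 counts in Hep3B-C (0.324 TPM) and 0 in Hep3B, Huh7 and Huh7-C. Its other strand miR-145* also had 5 counts in Hep3B-C and 0 elsewhere, while miR-143* had 0 in all 4 libraries. In Hep3B-C there were 341.2 reads of miR-143 for each read of miR-145, and miR-143 made up 99.7% of the reads of both (95% Clopper-Pearson interval 99.3% to 99.9%). The 2 strands of miR-145 were thus found only in Hep3B-C, where miR-143 was highest. At that ratio, the 427, 33 and 13 miR-143 reads of Hep3B, Huh7 and Huh7-C are too few to tell whether miR-145 was absent there. The ratio of miR-143 to miR-199a-3p reads, which needs no library size, was 2.59 and 26.7 in the Hep3B pair, against 0.458 and 1 in the Huh7 pair.

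**Figure D2:**
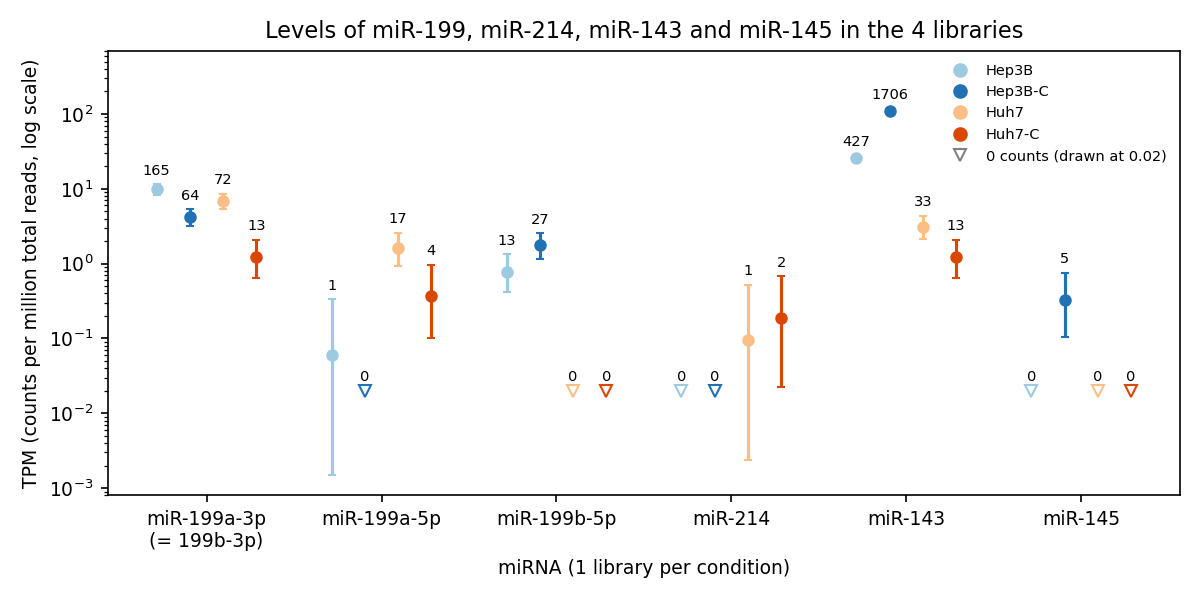
TPM (counts per 1000000 total reads, log scale) of the 6 distinct miRNAs in the 4 libraries, with 95% Poisson intervals and the count above each point. Open triangles mark 0 counts and do not stand for a level. MiR-143 was highest in Hep3B-C at 1706 counts, while miR-214 and miR-145 had 5 counts or fewer in every library.

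To ask which of these miRNAs differ between HCSCs and the HCC cells they came from, the libraries of each pair were compared by an exact Poisson test (Audic and Claverie, 2-sided). A call needed a log2 fold-change of 1 or more in size and a p of 0.01 or less after Benjamini-Hochberg adjustment. In the Hep3B pair 5 of the 6 distinct miRNAs had a count and were tested. Of these, 1 was up-regulated (miR-143) and 1 was down-regulated (miR-199a-3p) in Hep3B-C, against 34.1% up-regulated and 2.52% down-regulated among all 834 miRNAs tested. In the Huh7 pair 4 were tested, 0 were up-regulated and 2 were down-regulated in Huh7-C (miR-199a-3p and miR-143), against 3.11% up-regulated and 17.1% down-regulated among all 772. The median log2 fold-change of the members tested (0.5 added to each count) was 1.15 in the Hep3B pair, where that of all miRNAs tested was 1.45, and -1.65 in the Huh7 pair, where that of all was -0.62. MiR-199a-3p and miR-199b-3p were among the miRNAs that the study selected from these libraries.

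MiR-199a-3p fell in both pairs. In Hep3B-C it was 2.37-fold lower than in Hep3B (log2 fold-change -1.25, 95% counting interval -1.69 to -0.82), with an adjusted p of 2.87e-09 in the exact Poisson test. In Huh7-C it was 5.59-fold lower than in Huh7 (-2.48, interval -3.46 to -1.62), with an adjusted p of 1.15e-10 in the exact test. It stayed down-regulated with total miRNA counts as the library size, at -3.01 (interval -3.45 to -2.58) and -1.96 (interval -2.94 to -1.10), and with TMM library sizes or DESeq2 size factors. Both calls were lost when a biological coefficient of variation of 0.4 was assumed in the exact test of edgeR (adjusted p = 0.430 and 0.168).

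These falls can be read against the shift of all miRNAs that reached 10 counts in either library. Their median log2 fold-change in TPM was 1.42 for 475 miRNAs of the Hep3B pair and -0.66 for 431 miRNAs of the Huh7 pair, and it was -0.34 and -0.15 with miRNA counts as the library size. Relative to the median, miR-199a-3p stood at -2.66 in the Hep3B pair, where 18 miRNAs had a lower log2 fold-change and 455 a higher one. In the Huh7 pair it stood at -1.77, with 50 miRNAs below it and 379 above. Its place was thus closer to the lower end in the Hep3B pair, although its fold-change in TPM was larger in the Huh7 pair.

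MiR-143 moved in opposite directions in the pairs. It was 4.34-fold higher in Hep3B-C than in Hep3B (log2 fold-change 2.12, 95% counting interval 1.96 to 2.27), with an adjusted p of 2.25e-203 in the exact Poisson test. It was 2.56-fold lower in Huh7-C than in Huh7 (-1.36, interval -2.41 to -0.39), with an adjusted p of 0.00875 in the exact test. Relative to the median of all miRNAs it stood at 0.69 in the Hep3B pair, where 150 of 475 miRNAs had a higher log2 fold-change, and at -0.66 in the Huh7 pair. With miRNA counts as the library size the log2 fold-changes were 0.36 (interval 0.20 to 0.51) and -0.84 (interval -1.89 to 0.13). The directions held under each library size, but neither call did, since the rise in Hep3B-C came to less than a log2 fold-change of 1 and the decrease in Huh7-C did not pass the threshold of the adjusted p. Both calls were also lost with the assumed biological coefficient of variation of 0.4 (adjusted p = 0.104 and 0.803 in edgeR's exact test).

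The other strands and members were not called in either pair. In the Hep3B pair miR-199b-5p went from 13 to 27 counts (1.17 on the log2 scale, interval 0.17 to 2.25, adjusted p = 0.0284 in the exact test), and its direction turned with miRNA counts as the library size (-0.59, interval -1.59 to 0.49). MiR-145 went from 0 to 5 counts (adjusted p = 0.0479 in the exact test). In the Huh7 pair, miR-199a-5p went from 17 to 4 counts (-2.10, interval -4.13 to -0.48, adjusted p = 0.0121 in the exact test), and it was called when miRNAs under 10 counts in both libraries were left out (adjusted p = 0.00684 in the exact test). MiR-214 went from 1 to 2 counts (adjusted p = 0.724 in the exact test) and miR-214* from 4 to 1 (adjusted p = 0.385 in the exact test). At this depth a change in miR-214 or miR-145 was not detectable.

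**Figure D3:**
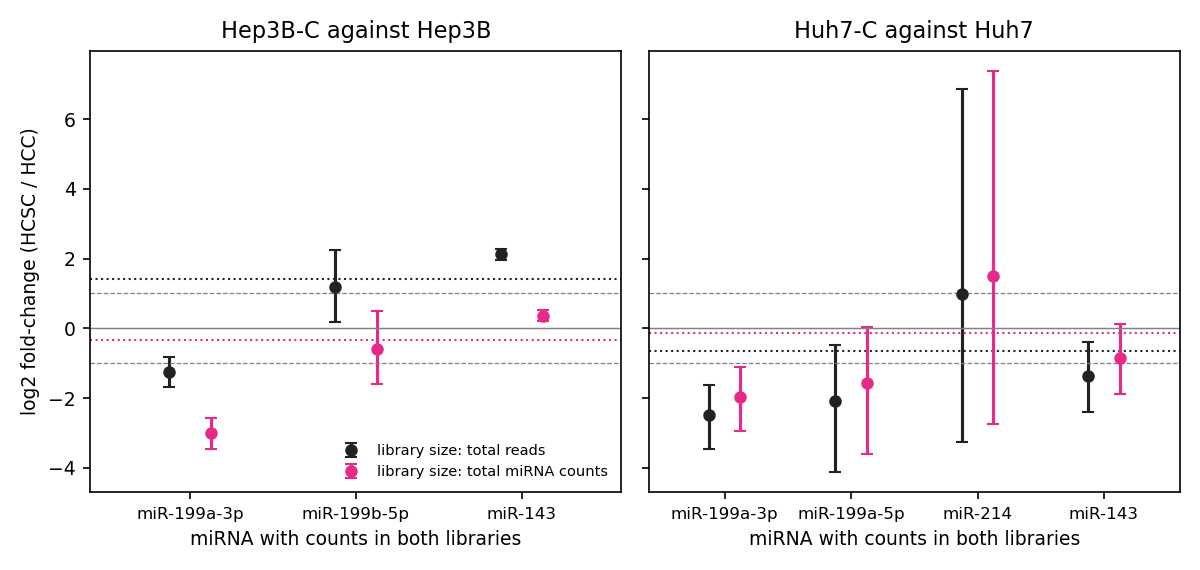
Log2 fold-change (HCSC / HCC) of the members with counts in both libraries of a pair, with 95% exact binomial counting intervals. Black points use total reads and pink points total miRNA counts as the library size, dotted lines of the same colours give the median of all miRNAs that reached 10 counts in either library, and dashed lines mark a log2 fold-change of 1 and -1. MiR-199a-3p was below 0 in both pairs with either library size, and miR-143 was above 0 in the Hep3B pair and below 0 in the Huh7 pair.

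The difference between the pairs was tested by an exact conditional test on the 4 counts of a member (3 members, 2-sided). For miR-143 the difference in log2 fold-change (Huh7 minus Hep3B) was -3.48 (interval -4.54 to -2.49, adjusted p = 4.23e-14 in the exact test). It held with the other library sizes, from -1.19 with miRNA counts (adjusted p = 0.0319 in the exact test) to -1.75 with TMM. For miR-199a-3p the difference was -1.24 (interval -2.31 to -0.25, adjusted p = 0.0131 in the exact test), but with miRNA counts it was 1.04 (interval -0.03 to 2.03, adjusted p = 0.0592 in the exact test). Which pair showed the larger fall of miR-199a-3p thus turned with the library size. For miR-199a-5p, at 0 in Hep3B-C, the exact test gave p = 1.

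The strands of miR-199 were also compared within a library, where the library size cancels. The 3p strand made up 92.2% of the 179 miR-199 reads in Hep3B (95% Clopper-Pearson interval 87.2% to 95.7%) and 70.3% of the 91 in Hep3B-C (59.8% to 79.5%). It fell by 21.8 percentage points (2-sided Fisher's exact test p = 7.86e-06, adjusted p = 8.65e-05 over 11 ratios). In Huh7 the 3p share was 80.9% of 89 reads (71.2% to 88.5%) and in Huh7-C 76.5% of 17 reads (50.1% to 93.2%), and no difference was detected (Fisher's exact p = 0.741, adjusted p = 1). The change in the Hep3B pair came from 165 to 64 reads of the 3p strand and 14 to 27 of the 5p strands, of which 13 and 27 were miR-199b-5p. Against miR-199a-5p alone, at 1 and 0 reads, the 3p share moved by 0.602 percentage points in the other direction. Of the 11 ratios, 6 had reads of both miRNAs in the pair, and only the 3p share of the Hep3B pair passed the test among them. The other 5, with 1 miRNA at 0 in both libraries, such as miR-143 against miR-143*, could not differ. MiR-145 against miR-145* was not tested, since neither had a read outside Hep3B-C. The nearest was miR-199a-3p against miR-214 in the Huh7 pair, from 72 and 1 to 13 and 2 reads (Fisher's exact p = 0.0740, adjusted p = 0.407).

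**Figure D4:**
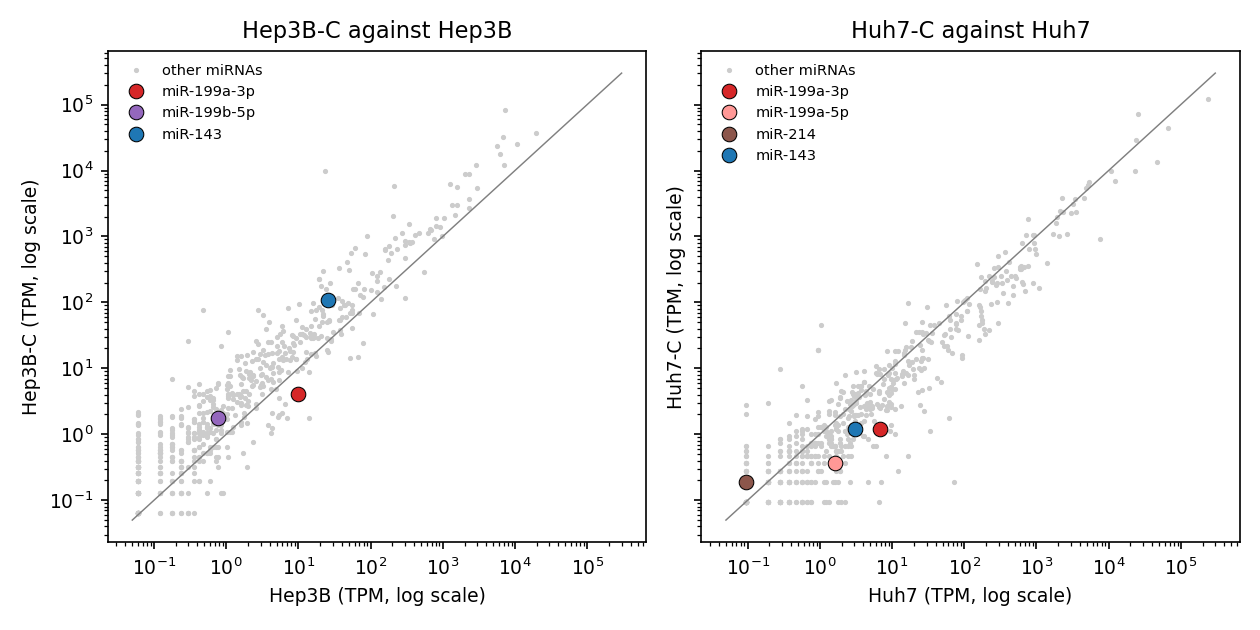
TPM of each miRNA in the HCSC library (vertical, log scale) against its HCC library (horizontal, log scale) for miRNAs with counts in both, with members in colour and the line of equal TPM. In the Hep3B pair most miRNAs lay above the line and miR-199a-3p below it, while in the Huh7 pair miR-199a-3p, miR-199a-5p and miR-143 lay below it.

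When all 4 libraries entered 1 fit in edgeR (quasi-likelihood test, TMM, parent line as a block), 3 distinct members reached 10 counts in 2 libraries and none was called, against 0% of all 443 miRNAs at an adjusted p of 0.05. MiR-199a-3p had a log2 fold-change of -2.19 (edgeR adjusted p = 0.544), miR-143 one of 0.13 (edgeR adjusted p = 0.971) and miR-199b-5p one of 0.02 (edgeR adjusted p = 0.997). Of all 443 miRNAs, 31 had an unadjusted p under 0.05 in edgeR, and DESeq2 called 3, none of them a member. MiR-199a-3p was lower in the HCSC library of 2 of 2 lines and kept this direction in each alternative of this fit. With a library left out, its log2 fold-change ranged from -3.21 without Hep3B-C to -1.04 without Hep3B. These fits had no block for the parent line, so that differences between the lines enter these values.

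Other miRNAs of stromal cells (miR-10b, miR-100, miR-125b, miR-152, miR-127-3p, miR-134, miR-379 and miR-409-3p) were compared with the members. Of these, miR-127-3p, miR-134, miR-379 and miR-409-3p come from the same imprinted cluster, so that the list does not stand for 8 separate loci. In Hep3B-C 5 of 8 were up-regulated and 2 down-regulated (median log2 fold-change 2.38), against 34.1% and 2.52% of all miRNAs tested (median 1.45). In the Huh7 pair 1 was up-regulated and 4 were down-regulated (median -2.39), against 3.11% and 17.1% of all (median -0.62). With miRNA counts as the library size, an alternative chosen after seeing the data, 3 were called up and 3 down in Hep3B-C (median 0.61, against -0.31 for all), and 1 was up-regulated and 3 were down-regulated in Huh7-C (median -1.88, against -0.10 for all). MiR-127-3p, miR-134, miR-379 and miR-409-3p of the imprinted cluster were each up-regulated in Hep3B-C, as was miR-125b, while miR-10b and miR-100 were down-regulated. In Huh7-C miR-127-3p, miR-134, miR-379 and miR-100 were down-regulated and miR-152 was up-regulated. MiR-379 and miR-134 were thus called in the same directions as miR-143 and kept these directions with miRNA counts as the library size. MiR-379 had 1037 and 10485 counts in the Hep3B pair, against 359 and 12 in the Huh7 pair, and miR-134 had 842 and 4840 against 178 and 5. MiR-100 had 1307 and 378 counts in the Hep3B pair, against 8097 and 3876 in the Huh7 pair, and was down-regulated in both pairs, but with miRNA counts as the library size its log2 fold-change in the Huh7 pair was -0.56 and did not reach the threshold, unlike that of miR-199a-3p. MiR-10b went from 90 to 30 counts in the Hep3B pair, where it was down-regulated (log2 fold-change -1.46). In the Huh7 pair it went from 17763 to 11705 counts and was not called (-0.61).

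Of the epithelial miRNAs (miR-200a, miR-200b, miR-200c, miR-141, miR-429 and miR-205), 3 of 5 tested were up-regulated in Hep3B-C, against 34.1% of all miRNAs tested. Their median log2 fold-change was 1.47 in this pair, where that of all was 1.45. In Huh7-C 0 of 4 were called, against 3.11% up-regulated and 17.1% down-regulated among all. MiR-200b had 3850 and 9812 counts in the Hep3B pair but 0 and 2 in the Huh7 pair. The Hep3B libraries, which held most of the miR-143 reads, thus also held most of the miR-200b reads. MiR-200a (2 and 0 counts in the Huh7 pair) and miR-429 (0 and 0) were low in the Huh7 libraries as well. MiR-200c was not, with 316 and 373 counts in the Huh7 pair, against 606 and 5085 in the Hep3B pair. With miRNA counts as the library size, 2 of the 5 were up-regulated and 1 was down-regulated in Hep3B-C. The log2 fold-change there was -0.29 for miR-200b, -0.82 for miR-200a and -1.44 for miR-429. That of miR-200c stayed above 0, at 1.43 (interval 1.30 to 1.55). The blood list (miR-142-3p, miR-142-5p, miR-223, miR-150, miR-451 and miR-144) summed to 8 and 1 counts in the Hep3B pair, against 796 and 5 in the Huh7 pair, with miR-150 and miR-144 at 0 in all 4 libraries. In the Huh7 pair, miR-451 of red blood cells went from 773 to 2 counts and miR-142-3p of leukocytes from 20 to 3. There 2 of 3 tested were down-regulated, against 17.1% of all 772 miRNAs. With miRNA counts as the library size it was 1 of 3, against 74 of all 772. Their part in the falls of miR-199a-3p and miR-143 in Huh7-C was not tested. In the Hep3B pair the list stayed at 8 counts or fewer and 0 of 4 were called, but at so few counts a fall could hardly be called.

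The muscle list (miR-1, miR-133a, miR-133b, miR-206, miR-208a and miR-208b) summed to 16 and 36 counts in the Hep3B pair, against 65 and 139 in the Huh7 pair, with miR-133a and miR-133b at 1 count in Hep3B and 0 elsewhere and miR-208a and miR-208b at 0. It had 1 of 4 tested up-regulated in the Hep3B pair, against 34.1% of all miRNAs tested, and 1 of 2 in the Huh7 pair, against 3.11% of all. With miRNA counts as the library size, 0 of 4 and 2 of 2 were up-regulated. The endothelial list (miR-126 and miR-126*) summed to 876 and 1595 counts in the Hep3B pair, against 2209 and 1703 in the Huh7 pair. Of the 2, 1 was up-regulated in Hep3B-C (34.1% of all miRNAs tested) and 1 down-regulated in Huh7-C (17.1% of all). With miRNA counts as the library size 0 were called in either pair. Of the 4 hepatocyte miRNAs, 4 were up-regulated in Hep3B-C, against 34.1% of all miRNAs tested. In Huh7-C 2 were down-regulated, against 17.1% of all, and these were the 2 strands of 1 hairpin (miR-122 and miR-122*). With miRNA counts as the library size, 2 of the 4 were up-regulated in Hep3B-C and 2 down-regulated in Huh7-C. MiR-192 (-0.53), miR-194 (-0.45) and miR-126 (-0.76) then turned below 0 in the Hep3B pair, while miR-122 stayed above it (6.92). The part of these cell markers in the results was not tested.

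The miRNAs most like each member over the 4 libraries were found by the root mean square difference of the centred log2 level, among 441 to 443 miRNAs that reached 10 counts in 2 or more libraries. For miR-199a-3p they were miR-23b* (0.384), miR-664 (0.534) and miR-15b* (0.539). MiR-23b*, for example, had 13 and 7 counts in the Hep3B pair, against 12 and 1 in the Huh7 pair. For miR-199a-5p they were miR-101* (0.323), miR-100 (0.372) and miR-203 (0.592), all higher in the Huh7 libraries. For miR-199b-5p they were miR-99a (0.306), let-7d (0.416) and miR-2277-5p (0.431). MiR-99a had 361 and 1191 counts in the Hep3B pair, against 12 and 15 in the Huh7 pair. For miR-143 they were miR-3175 (0.363), miR-431* (0.487) and miR-199b-5p (0.578). MiR-199b-5p was thus among the nearest patterns to miR-143, with its counts in the Hep3B libraries only. Since each pattern has only 4 points from the same libraries, these are descriptions.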

How the data were processed

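Small RNA libraries of Hep3B, Hep3B-C, Huh7 and Huh7-C were used (1 each). The authors removed reads under 18 nt, mapped the rest with SOAP (NCBI Build 36.1), assigned them to miRBase release 17 and deposited raw read counts per miRNA. Nothing had been normalized, and the counting of reads that fit several miRNAs is not given in the sources used here. TPM was computed from these counts and the study's total reads per library.

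Pairs were tested with the exact Poisson test, with a TPM of 0 set to 0.001. The lower tail held the observed count and the upper tail only counts above it, a choice made after conventions were compared. The p was adjusted over all miRNAs with a count in the pair. All 4 libraries were fitted by edgeR over miRNAs that reached 10 counts in 2 or more libraries, with the parent line as a block. The block pairs each HCSC library with its own parent line, as the labels name it, and libraries of a line deviated together (r = 0.833 over 443 miRNAs). Ratios were tested by exact conditional or Fisher's exact tests. Intervals are 95% and, as the floor of 3 counts, cover counting error only.

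The members and lists were chosen with earlier results of these data known. Named beside the members were their other strands, miRNAs with the same seed, the 3 nearest patterns of members with at least 20 counts in all, and up to 4 miRNAs per list with the most counts. The alternatives were other library sizes (total miRNA counts, TMM, DESeq2), count filters, 0.5 added to counts, an assumed biological coefficient of variation, merged identical rows, no block and leaving out each library. Coordinates come from GRCh38, and none were converted. The tests were also run on simulated data, with counting noise alone for the tests of pairs. For the fit over both lines the simulated variation was smaller than in these data (biological coefficient of variation 0.546). The simulations therefore do not show how the tests do at the variation found here. Python 3.11.15, scipy 1.17.1, R 4.3.3, edgeR 4.0.16 and DESeq2 1.42.0 were used.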

Additional observations from a re-analysis of the deposited data

Results flagged for a closer look

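MiR-143 and miR-199a-3p had log2 fold-changes that differed between the Huh7 pair and the Hep3B pair in an exact conditional test on the 4 counts. For miR-143 the difference (Huh7 minus Hep3B) was -3.48 (95% interval -4.54 to -2.49, adjusted p = 4.23e-14 in the exact test over 3 members), with 427 and 1706 counts in the Hep3B pair against 33 and 13 in the Huh7 pair. For miR-199a-3p it was -1.24 (interval -2.31 to -0.25, adjusted p = 0.0131 in the exact test), with 165 and 64 counts against 72 and 13. The first kept its direction and passed the threshold of 0.05 under each of the 3 other library sizes, and the second turned under all 3.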

How the results depend on the processing

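With total miRNA counts, TMM library sizes and DESeq2 size factors in turn as the library size, the miRNAs called up-regulated in the Hep3B pair went from 284 to 47, 71 and 96, and those called down-regulated from 21 to 112, 76 and 59. Members called up-regulated there went from 1 to 0 under each. In the Huh7 pair, the calls up went from 24 to 56, 40 and 59, the calls down from 132 to 74 with miRNA counts and 71 with DESeq2 size factors, and the members called down from 2 to 1 under each. The log2 fold-change of miR-199b-5p in the Hep3B pair turned to -0.59, -0.24 and -0.00472, and the difference between pairs of miR-199a-3p to 1.04, 0.49 and 0.52. The cause was not tested.

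When a biological coefficient of variation of 0.4 was assumed, 25 miRNAs were called up and 0 down in the Hep3B pair and 5 up and 10 down in the Huh7 pair, and 0 members were called in either direction, since the test allows for variation between cultures. In the fit over both lines DESeq2 called 3 miRNAs. Without the count filter the log2 fold-changes of miR-199b-5p and miR-143 turned to -0.23 and -0.10. With each library left out in turn, without the block, miR-143 ranged from -4.29 (without Hep3B-C) to 4.41 (without Hep3B), miR-199a-3p from -3.21 to -1.04 (without the same libraries) and miR-199b-5p from -0.95 (without Huh7) to 1.04 (without Huh7-C). The fit without the replicate block also called 0 miRNAs, with 5 at an unadjusted p under 0.05 in edgeR. The share of the 3p strand in the Hep3B pair moved by 0.602 percentage points when miR-199a-5p alone (1 and 0 reads) stood for the 5p strands. Counting from the observed value up in the exact Poisson test, an alternative chosen after seeing the data, changed no member's call. All miRNAs called up-regulated in the Hep3B pair went from 284 to 275 with it. No library could be left out within a pair, since each condition had 1. Depth limits miR-214 and miR-145 the most.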
